A study of Mus musculus with 4 samples.

Results

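The captured stretch of chromosome 1 was compared between mESCs of line 1B1 in which cohesin had been degraded and the 3 untreated lines 1A2, 1F4 and 1B1, using 1 tiled Capture-C library each. The members were all bin pairs with both bins on chromosome 1, that is 558 of the 1361 bins of 6.4 kb with a value in the series and 155961 pairs of bins, of which 552 bins were balanced in all 4 maps. The stretch starts at position 72083201 of chromosome 1 (mm9, counted from 1), is 3.57 Mb long and holds the starts of 65 protein-coding genes. All 4 libraries came from derivatives of the E14 mESC line that carry the cohesin subunit RAD21 fused on both alleles to HaloTag and the FKBP degron, arrays of TetO and LacO operators on one copy of chromosome 15, in a domain whose own internal CTCF sites had been deleted, and the repressors TetR-tdTomato and LacI-eGFP that make the arrays visible. In 1B1 cassettes of 3 × CTCF sites flank the arrays and the promoters of the resistance genes are gone, in 1A2, which was derived from 1B1, the 3 × CTCF sites and the promoters are both gone, and in 1F4 the 3 × CTCF sites are gone and the promoters are kept. The treated library came from 1B1 cells given dTAG-13, a compound that directs FKBP-tagged proteins to the proteasome, at 500 nM for 2 h. Each line is 1 clone, and none of the targeted integrations lies on chromosome 1. The untreated lines therefore served as 3 references for the sequence studied here, and they differ by clone and by the chromosome 15 locus. The repressor genes were inserted by piggyBac transposition, and where they lie was not checked here. The maps hold neither expression nor protein levels, so the mESC identity and the loss of RAD21 could not be checked in them.

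Cohesin is a ring-shaped complex that is thought to extrude chromatin into growing loops until it meets CTCF, a zinc-finger protein whose asymmetric binding site stops extrusion mainly from one side. Pairs of CTCF sites that point towards each other therefore often mark the feet of loops and the borders of topologically associating domains (TADs), within which contacts are more frequent than across their borders. A weaker and longer-ranged layer, compartmentalisation, brings stretches of similar activity together, and gene-dense chromatin tends to contact other gene-dense chromatin.

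The maps rested on 1648754 recovered reads of chromosome 1 for 1A2, 2102384 for 1F4, 1677423 for 1B1 and 1848616 for the treated library. With 1 treated library, an exact permutation over samples could not go below p = 0.25, so no test was made, and each treated value was set against the lowest and the highest of the 3 untreated values. A value was called only where it passed that range by 0.3 on the log2 scale, which is 1.23-fold. Counting errors of the recovered reads stand behind ± below. They do not cover variation between cultures or library preparations.

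The sequences below show where the core of the CTCF site can be read at the contacts and boundaries described further on. A degenerate core CTCF consensus, searched on both strands, had 27 matches in the stretch and lay in 12.9% of the 556 windows of 3 bins, in 12 of the 55 windows around anchors of focal contacts and in 5 of the 12 around boundaries. It was chosen after the letters CCANNAGNNGGC, searched first on both strands and with the N standing for any base, had turned up in 76.6% of windows (304 matches), which separates little. Every match to the degenerate consensus is also a match to those letters. The 6 sites that face each other across 3 focal contacts and the 4 other sites at boundaries are printed 5′ to 3′ in the direction of the match, with the core in capitals and flanks in lower case, from mm9 (NCBIM37). A match is a run of letters, and occupancy by CTCF was not measured here.
Igfbp5 intron, chr1:72912571-72912600, plus strand: tctaggtggCCAGTAGGTGGCgcaggagac
between Tnp1 and Tns1, intergenic, chr1:73873062-73873091, minus strand: ctcatccgaCCACCAGAGGGCagtgtggta
upstream of Ttll4, intergenic, chr1:74690671-74690700, plus strand: ccaggaatcCCACTAGGTGGCaggagagaa
near Prkag3, intergenic, chr1:74806596-74806625, minus strand: tcctagaaaCCAGCAGAGGGCatcatatcc
Chpf exon, chr1:75474143-75474172, plus strand: cgtgttgctCCAGCAGGTGGCgcagcgcca
nearest to Slc4a3, intergenic, chr1:75594396-75594425, minus strand: aacactctgCCACTAGGGGGCagcatatcc
near Cxcr1, intergenic, chr1:74242726-74242755, minus strand: cctcagaagCCAGCAGAGGGCatcagattt
Vil1 intron, chr1:74468811-74468840, minus strand: tcagacacaCCAGCAGAGGGCattagatcc
near Fev, intergenic, chr1:74927523-74927552, plus strand: tctctcggaCCAGCAGAGGGCgcgcaccac
near Cryba2, intergenic, chr1:74941711-74941740, plus strand: tagaggtggCCACTAGGGGGCggggccagt

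Contacts between 100 and 500 kb fell in the treated map, and those beyond 2000 kb lay above every untreated map. Each map was scaled to the same sum of contacts beyond neighbouring bins, and the mean per bin pair is called scaled contact. Between 100 and 250 kb the scaled contact of 1A2, 1F4 and 1B1 was 16.6, 16.6 and 16.5, in this order from here on, and that of the treated map 13.4, a log2 change of -0.31 against the mean of the untreated maps. Between 250 and 500 kb it was 7.93, 7.85 and 8.23 against 5.97, a log2 change of -0.42 and the largest fall of the 6 bands. Between 500 and 1000 kb it was 3.66, 3.49 and 3.90 against 3.05, a log2 change of -0.27. In all 3 bands the treated map lay below the untreated maps, past the margin in the first 2. Point by point the treated curve was lowest at every plotted separation from 80 to 886.4 kb.

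Among the bands, only that from 2000 to 3500 kb lay above all untreated maps under both scalings. Between 25 and 100 kb the scaled contact was 43.3, 44.3 and 41.7 against 47.4, a log2 change of 0.14 that became -0.033 when each map was scaled to its sum over all separations, so no direction is given for this band. That other scaling lowers the change of every band from the untreated mean by about 0.17 on the log2 scale. The reason is that contacts within a bin or between neighbours made up 42.8%, 44.5% and 39.4% of the signal in the untreated maps and 48.7% in the treated one. Between 1000 and 2000 kb the value of 1.55 lay within the untreated range of 1.27 to 1.55. Between 2000 and 3500 kb it was 0.656, 0.577 and 0.736 against 1.05, 1.60-fold the untreated mean (log2 0.68 ± 0.01) and 0.51 above untreated 1B1, the highest untreated map. Scaled to all separations, the treated value still lay above the untreated maps, but by 0.27, which is under the margin. Beside this rise, the share of bin pairs between chromosome 1 and the other captured regions that held any read was 0.325%, 0.365% and 0.421% in the untreated maps and 0.586% in the treated map. Such pairs were more frequent in the same map as the far contacts, and their part in that result was not tested.

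The slopes give the same change as the shape of the curve. From 50 to 300 kb the slope of log10 contact against log10 separation was -0.841, -0.860 and -0.814 in the untreated maps and -1.08 in the treated map, which was steeper than all of them. From 300 to 1000 kb it was -1.19, -1.25 and -1.17 against -1.02, and from 1000 to 3000 kb -1.40, -1.41 and -1.34 against -0.749. In both of these ranges the treated curve was the flattest. A single slope from 50 to 1000 kb averages over opposite changes and gave -0.957, -0.983 and -0.916 against -1.03. The 3 narrower fit ranges were chosen after the curves had been seen.

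**Figure D1:**
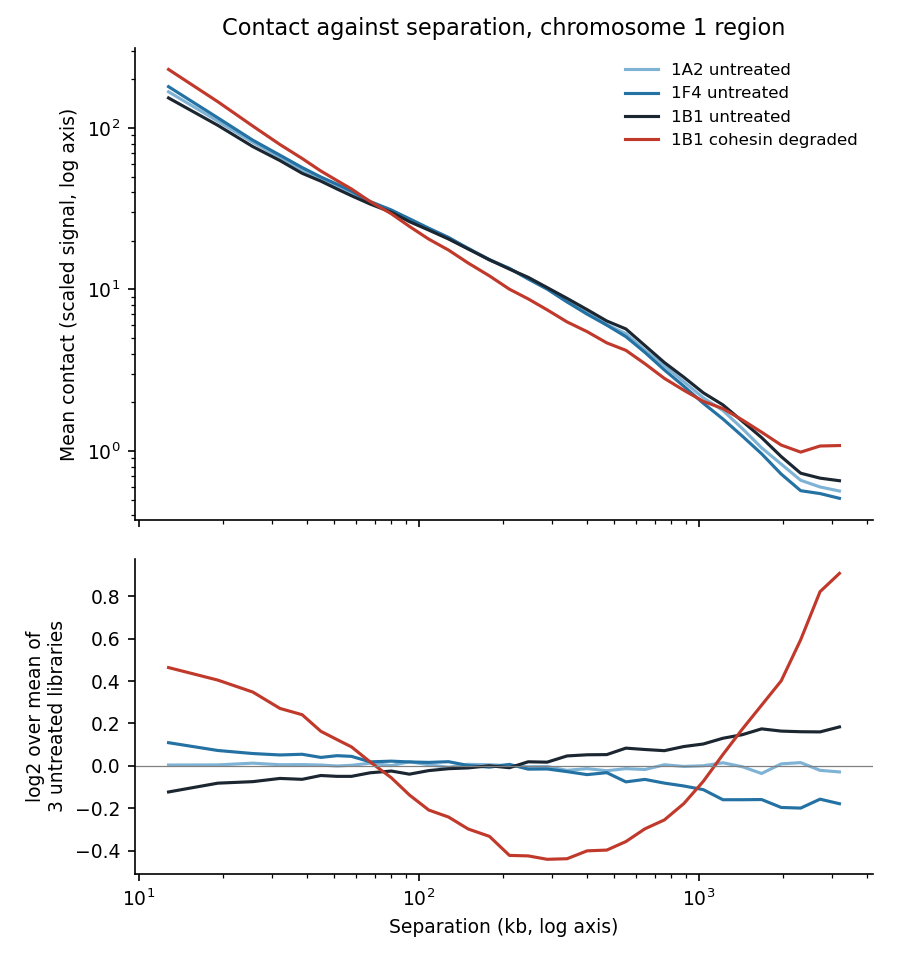
Mean scaled contact against genomic separation in kb on log axes for the 3 untreated maps and the treated map, and the log2 ratio of each map to the untreated mean. As plotted, the treated curve lies below the untreated curves at the points from 80 to 886.4 kb. It lies above them at the points from 12.8 to 57.6 kb and from 1433.6 kb onwards. The sign of the change of the 25 to 100 kb band depends on the scaling (log2 0.14, and -0.033 when scaled to all separations). Scaled to all separations, the 1000 to 2000 kb band lies within the untreated range, and the 2000 to 3500 kb band lies above it by log2 0.27.

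Boundaries between domains became shallower at most of their positions. For each bin, insulation is the mean contact between the 128 kb on its left and the 128 kb on its right, as a log2 ratio to the average of all bins, and boundaries are minima of it. The mean of the untreated maps held 12 boundaries, each at least 0.3 deep on both sides. In the treated map 10 of them lay above the untreated range, 2 within it and 0 below, and 5 were called higher. The background for this count is 13.8% of all 513 bins tested called higher (71 bins), with 6.43% (33 bins) called lower, and 48.3% of all bins (248) lay above the untreated range. The median change over the boundaries was 0.30, against 0.02 over all bins, and the medians of the single untreated maps from their own mean were -0.01, -0.03 and 0.04. Median depth was 0.737, 0.729 and 0.660 in the untreated maps and 0.247 in the treated map.

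The 3 boundaries of lowest insulation all rose. The lowest, in the gene-free interval 238 kb from the start of Tns1 at chr1:73926401-73932800, measured -1.38, -1.61 and -1.42 in 1A2, 1F4 and 1B1 and -0.68 after degradation, a rise of 0.79 from the untreated mean. Tns1 encodes tensin, which links integrin adhesions to actin. The boundary at Igfbp5, which encodes a binding protein of insulin-like growth factors (chr1:72915201-72921600), measured -1.29, -1.44 and -1.27 against -0.68, a rise of 0.66. At Rpl37a, a gene of the large ribosomal subunit (chr1:72755201-72761600), it measured -0.71, -0.77 and -0.66 against -0.26, a rise of 0.45. The treated values of the Tns1-side and Igfbp5 boundaries remained below the untreated values of every other boundary but Rpl37a.

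The other 2 called boundaries had treated values near the average of the stretch. At Cxcr1, a chemokine receptor gene (chr1:74233601-74240000), the values were -0.44, -0.44 and -0.40 against -0.03, a rise of 0.40. In the gene-free interval 275 kb from Tnp1, which encodes a nuclear protein of spermatids (chr1:73337601-73344000), they were -0.41, -0.37 and -0.34 against -0.01, a rise of 0.37. Both still lay below the highest values on either side. The depths below these flanks were 1.03, 1.08 and 0.959 against 0.181 at Cxcr1 and 0.353, 0.326 and 0.252 against 0.093 at the second. Neither was a boundary of the treated map by the same rule.

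In 5 boundaries the treated value lay above the untreated range by less than the margin. At chr1:73638401-73644800, with no gene, it was -0.44, -0.48 and -0.39 against -0.13, a rise of 0.30 from the untreated mean. At Dnpep, an aminopeptidase gene (chr1:75308801-75315200), it was -0.33, -0.42 and -0.34 against -0.07. At Slc23a3 (chr1:75116801-75123200), a solute carrier gene, it was -0.22, -0.25 and -0.14 against -0.01. In these 3 boundaries the treated value was the closest to 0 of the 4 maps. At Fev and Cryba2, a transcription factor gene of serotonergic neurons and a lens crystallin gene (chr1:74931201-74937600), it was -0.11, -0.16 and -0.17 against 0.00. At Vil1, which encodes the actin-bundling protein villin of microvilli (chr1:74470401-74476800), it was -0.45, -0.46 and -0.40 against -0.37, a change of 0.07. The treated map had its own minimum 4 bins upstream of it, at chr1:74444801-74451200, where insulation was -0.37, -0.37 and -0.29 in the untreated maps and -0.57 in the treated one.

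The remaining 2 boundaries stayed within the untreated range. At Rnf25 and Stk36, genes of a ubiquitin ligase and a protein kinase (chr1:74643201-74649600), insulation was -0.30, -0.17 and -0.22 against -0.19. Near Prkag3, which encodes a regulatory subunit of AMP-activated kinase (chr1:74803201-74809600), it was -0.49, -0.38 and -0.35 against -0.48. Its depth below the flanks, 0.541, 0.513 and 0.461 in the untreated maps, was 0.727 in the treated map, the only one of the 12 boundaries that became deeper. With Vil1 they are the 3 boundaries of smallest change, and all 3 are neighbours. The counting errors of all 12 boundaries were 0.016 to 0.028, well under the changes at the 5 called ones.

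Because the boundaries were minima of the untreated maps, they were also defined in each pair of untreated maps and read in the untreated map left out. The map left out differed from the pair by medians of -0.01, -0.05 and 0.06 when it was 1A2, 1F4 and 1B1. The treated map lay above the map left out by medians of 0.26, 0.35 and 0.26, at 11 of 11, 10 of 12 and 12 of 13 boundaries. Defined in single maps by the same rule, the untreated maps had 13 (1A2), 12 (1F4) and 11 (1B1) boundaries and the treated map 6, of which 4 lay within 3 bins of one of the 12.

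Insulation changed away from boundaries as well. None of the 513 bins passed the margin when any untreated map was set against the other 2, whose range is narrower than that of 3. In the treated map a run of 14 bins over Aamp, Pnkd and Tmbim1, in the middle of a domain, fell from means over the run of 0.47, 0.49 and 0.48 to 0.05. A run of 9 bins from Atg9a, an autophagy gene, to Ptprn fell from means of 0.47, 0.48 and 0.48 to 0.08. These are peaks of the untreated profile, and both were lower in the treated map. A run of 10 bins over Usp37, a deubiquitinase gene, and Rqcd1 rose from means of 0.16, 0.07 and 0.12 to 0.50 without being a boundary. The SD of the profile over the stretch was 0.374 to 0.399 in the untreated maps and 0.230 in the treated map. Profiles correlated across bins, which are not independent, at r = 0.993 to 0.994 among untreated maps and at 0.719 to 0.738 between these and the treated map.

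**Figure D2:**
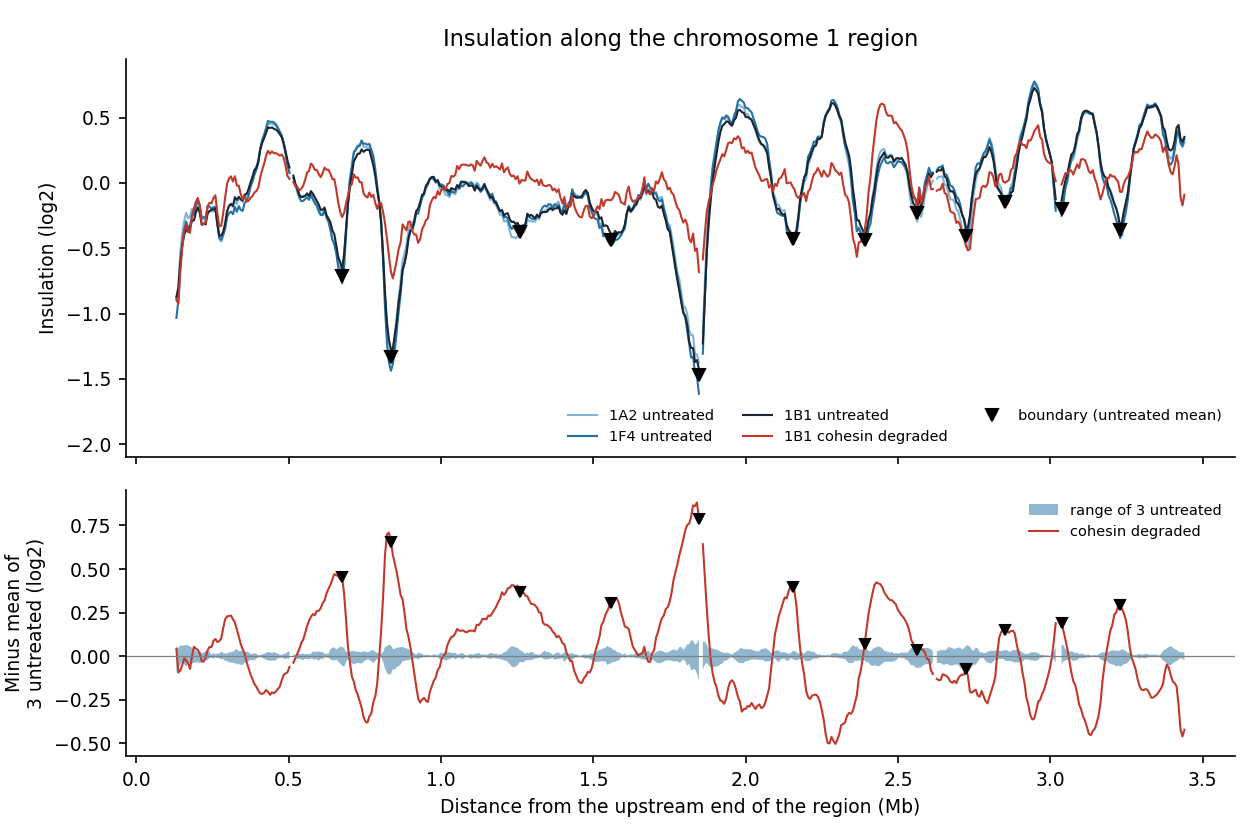
Insulation (log2) along the stretch in Mb from its upstream end for the 4 maps, with the 12 boundaries of the untreated maps marked, and the treated profile minus the untreated mean with the untreated range shaded. The treated profile is flatter (SD 0.230 against 0.374 to 0.399), and at the boundary bins the change is largest beside Tns1 (0.79) and at Igfbp5 (0.66) and under 0.1 in size at Vil1, Rnf25 and Prkag3.

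Most focal contacts lost strength, and others lay within or above the untreated range. A focal contact is a window of 19.2 kb on a side whose observed/expected is at least 1.5 times that of the surrounding ring in each untreated map, where observed/expected is the contact divided by the mean at the same separation. The untreated maps held 43 of them. In the treated map 26 lay below the untreated range, 10 within and 7 above, and 18 were called lower and 0 higher. Among all 17712 windows tested, 4.80% were called lower and 2.28% higher, while 30.4% lay below the range and 29.99% above it. The median log2 change of the 43 was -0.25, against -0.00 over all windows and 0.01, 0.05 and -0.07 in the single untreated maps. The median ratio was 1.82, 1.81 and 1.76 against 1.67, and 26 of the 43 still reached 1.5 in the treated map. With untreated 1B1 left out of the references, 56 contacts were found and 41 lay below the range, and on recovered reads without balancing 202 were found with a median change of -0.05.

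The windows were chosen for high untreated ratios, so they were also called in pairs of untreated maps. Read in the untreated map left out, the median moved by -0.03, 0.03 and -0.18 log2 for 1A2, 1F4 and 1B1. The treated map lay below the map left out with median log2 changes of -0.20, -0.23 and -0.14, and did so at 39 of 53, 35 of 49 and 33 of 56 contacts. The fall against 1B1, the parent of the treated cells, was thus the smallest of the 3 and smaller than the drop of 1B1 itself from the other untreated maps.

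The 10 strongest contacts of the untreated maps had a median log2 change of -0.65, with 8 below the range and 7 called lower, and the other 33 a median of -0.18, with 18 below and 11 called lower. The median ratio of the 10 was 2.94, 2.98 and 2.64 against 2.08. The ranking used the same untreated values that the change is measured against, and no ranking was made with a map left out. No conclusion is drawn from the difference between these sets. Among all 43, 4 contacts shared an anchor at the boundary next to Tns1, and all 4 lay below the range with a median change of -0.68. The contact of that anchor at chr1:73939201-73945600 with the body of Tns1 96 kb away, the strongest of all, measured 3.91, 4.16 and 3.26 against 2.49, a change of -0.60 ± 0.10. Its contact with Cxcr1, 301 kb away, measured 2.93, 3.997 and 2.76 against 1.91, a change of -0.75. Its contact with Rufy4, 237 kb away, measured 2.79, 2.75 and 1.95 against 1.33, a change of -0.90. The second contact with Tns1, at 186 kb, changed least of the 4, from 2.95, 2.79 and 2.54 to 2.43.

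The Igfbp5 boundary anchored 8 contacts. Of these, 7 reached downstream towards Tnp1 and the interval between Tnp1 and Tns1, and 1 reached 288 kb upstream to the vicinity of Smarcal1. Their ratios to the ring did not move alike: 4 lay below the range, 2 within and 2 above. In observed/expected without the ring, 6 of the 8 were lower than the untreated mean, with a median log2 change of -0.96. The contact with a site 403 kb away fell from 3.21, 3.17 and 2.73 to 1.55, a change of -0.97 ± 0.17. Its contact at 749 kb fell from 3.13, 3.36 and 2.81 to 2.10. The contact at 864 kb had the largest fall of all 43, from 1.61, 1.88 and 1.70 to 0.685 (-1.34 ± 0.32), on only 22 treated reads. By contrast the ratio of the contact at 627 kb was 2.37, 2.26 and 1.92 against 2.06 and stayed within the range. Its observed/expected nevertheless fell from 3.78, 3.73 and 2.86 to 2.60. The ratio of the nearest contact, at 76.8 kb, was 2.07, 2.17 and 1.94 against 2.32 and lay above the range.

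A longer contact joined the intron of Igfbp5 with a site 960 kb downstream, between the first 2 printed sequences, which point towards each other. Its ratio was 2.85, 2.78 and 2.29 against 1.54, a change of -0.78 ± 0.18, and its observed/expected fell from 14.7, 16.5 and 11.5 to 4.25. The treated contact was still above the mean for its separation. The other 2 contacts with facing sites joined the interval upstream of Ttll4 to the Prkag3 side at 115 kb and Chpf to the interval beyond Slc4a3 at 115 kb. The first measured 1.80, 2.22 and 1.90 against 1.62 and the second 1.83, 1.81 and 1.78 against 1.40, and both lay below the range. Facing degenerate sites were present at 3 of the 43 contacts and at 0.757% of all windows tested. With the looser letters, 19 of the 43 contacts and 29.5% of all windows had facing matches. Of those 19, 16 lay below the range with a median change of -0.39, against 10 of the other 24 with a median of -0.07. The share below the range among all windows with such facing matches is not given. No conclusion is drawn from this contrast.

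The second strongest contact, between the interval beside Rpl37a and Igfbp2, a further gene of an insulin-like growth factor binding protein, spanned 134 kb and fell from 3.46, 3.78 and 3.33 to 2.17 (-0.70 ± 0.08). The contact between the interval beyond Cxcr1 and the one beside Gpbar1, a bile acid receptor gene, spanned 64 kb and fell from 1.68, 1.79 and 1.60 to 0.989, which is no enrichment over the ring. Downstream of the Cxcr1 boundary 11 of 13 contacts lay below the range (median -0.39) and 4 still reached 1.5. Upstream of it 14 of 29 lay below (median -0.08) and 21 still reached 1.5. The median separation was 115.2 kb downstream and 268.8 kb upstream. Among all contacts under 150 kb, 12 of 17 lay below the range. No share over all windows is given for either side, so no conclusion is drawn from this split.

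No contact was called higher, but 7 lay above the untreated range, and 12 of 53 when 1A2 was left out of the references. The largest rise joined a pair of gene-free sites, chr1:73542401-73548800 and chr1:73715201-73721600, 173 kb apart, and went from 1.51, 1.76 and 1.61 to 2.16 (0.41 ± 0.12). Mreg, the melanoregulin gene, and Xrcc5, which encodes a Ku subunit of DNA end joining, lie 96 kb apart, and their contact went from 1.60, 1.72 and 1.53 to 2.06 (0.35 ± 0.12). The next joined a site 64.1 kb from Tnp1 to the gene-free interval 550 kb away, at 1.63, 1.73 and 1.65 against 1.96 (0.23 ± 0.16). The fourth joined sites 1100.8 kb apart on either side of Igfbp5, at 1.96, 1.81 and 1.82 against 2.106 (0.18 ± 0.18). The sizes of these changes in the ratio to the ring are 1 to 4 times their counting errors. In observed/expected without the ring, the fourth contact fell below every untreated map, with a log2 change of -0.51. Its rise was therefore one of the ratio only. The contacts named before it also lay above every untreated map in observed/expected, with log2 changes of 0.69, 0.22 and 0.21. The interval between Igfbp5 and Tnp1 anchored 6 contacts with a median change of 0.04, of which 1 lay below the range and 2 above.

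Called in single maps, the untreated maps had 77 (1A2), 88 (1F4) and 75 (1B1) focal contacts and the treated map 51 at the required 100 reads. The order depended on that minimum, since at 50 reads the untreated maps had 162, 193 and 178 and the treated map 170, within their range, and at 200 reads 28, 42 and 30 against 16. Of the calls at 100 reads, 22.1%, 37.5%, 28.0% and 25.5% were shared with no other untreated map within 2 bins, but a treated call had 3 maps to match and an untreated call 2. Map by map, 24, 29 and 20 of the 51 treated calls were shared with 1A2, 1F4 and 1B1, while 1A2 shared 52 of its 77 with 1F4 and 50 with 1B1, and 1F4 shared 46 of its 88 with 1B1. Of the 13 treated calls not shared, the strongest joined Vil1 to Stk36 over 224 kb, at 1.21, 1.70 and 1.45 in the untreated maps and 1.98 in the treated one. In 1F4 this contact passed the ratio of 1.5 but had 89 reads, under the required 100. Another unshared call joined the edge of Tns1 to the interval beyond Cxcr1, at 0.940, 0.938 and 1.05 against 1.59, across the Cxcr1 boundary. Averaged over the 43 contacts, the observed/expected at the centre was 3.12, 3.36 and 2.82 against 1.97, and in the ring 1.47, 1.55 and 1.45 against 1.21. Centre and ring were therefore both lower in the treated map. These means were read in the untreated maps that chose the contacts and were not repeated with a map left out.

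**Figure D3:**
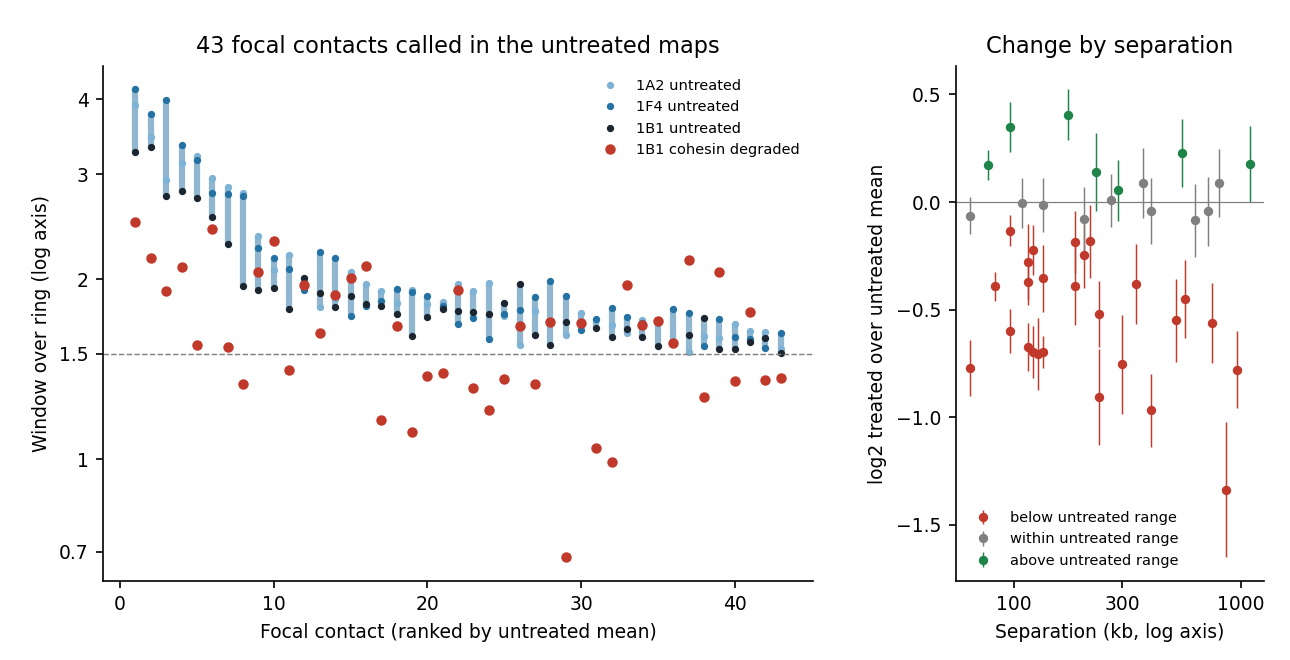
Window/ring ratio of the 43 focal contacts in each map, ordered by strength in the untreated maps, and the log2 change of each contact with its counting error against separation in kb. The median change is -0.65 over the 10 strongest contacts and -0.18 over the other 33, the largest single fall (-1.34) is at rank 29, and 7 contacts lie above the untreated range. Contacts were ranked by the untreated values that the change is also measured against, so the difference between these sets is not interpreted.

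**Figure D4:**
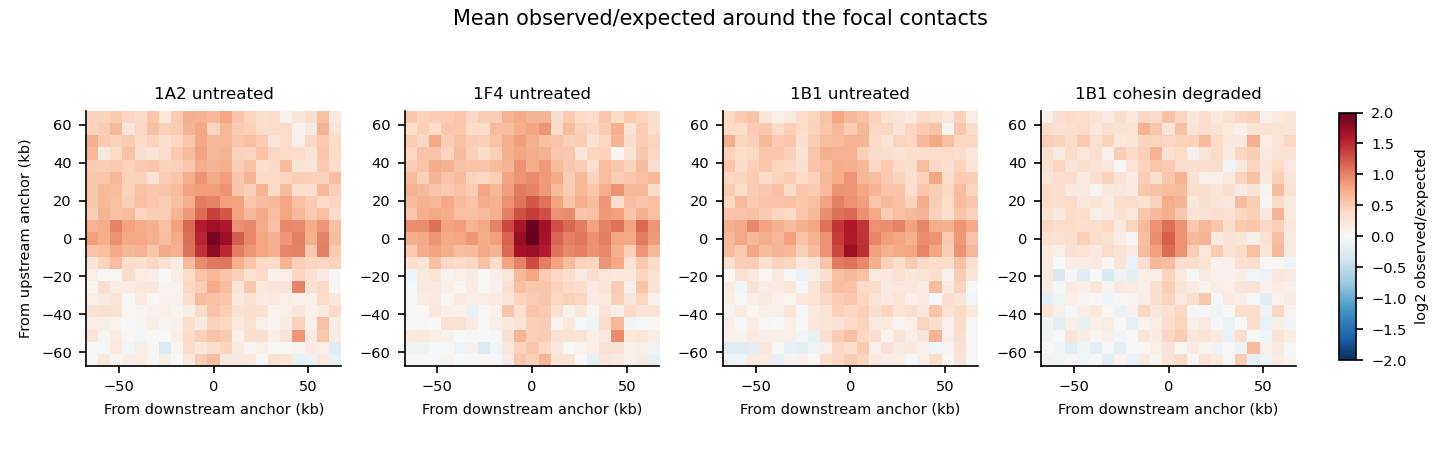
Mean observed/expected around the 43 focal contacts in each map, coloured on a log2 scale, against the distance in kb from the anchors along both axes. The centre is at 2.82 to 3.36 in the untreated maps and 1.97 in the treated map, and the surrounding ring at 1.45 to 1.55 and 1.21. The contacts were chosen in the same untreated maps, and no mean was taken with a map left out.

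On a coarser grid of blocks of 64 kb, the treated map changed in both directions. Of the 963 blocks with enough reads, 22.0% (212) were called higher and 17.4% (168) lower in observed/expected. The same rule applied to each untreated map against the other 2 called 8, 7 and 12 higher and 10, 23 and 3 lower for 1A2, 1F4 and 1B1. As observed/expected averages 1 at every separation, blocks above and below balance at a given distance, and scaled contacts are given beside some of the values for that reason. As scaled contact, all of the largest falls and rises described below also lay beyond the untreated range, in the same direction.

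Of the 5 largest falls, ranked by distance below the untreated range, 4 joined blocks upstream of Tns1 and the other, second in size, joined Tns1 to Vil1 and Usp37. The block of Igfbp2 and Igfbp5 with a gene-free block 960 kb downstream, which holds the 960 kb contact above, fell from 3.44, 3.51 and 3.37 to 1.65. The block of Tmem169 and Xrcc5 with a gene-free block 1408 kb downstream fell furthest, from 1.64, 1.52 and 1.73 to 0.597, a difference of -1.35 on the log2 scale from the lowest untreated map. Both moved from above the mean for their separation towards or below it. The block of Ankar and Rpl37a with the gene-free block 576 kb downstream fell from 1.38, 1.38 and 1.302 to 0.655, and the block of Tmem169 and Xrcc5 with that same gene-free block from 1.02, 0.852 and 0.968 to 0.432. Tns1 with Vil1 and Usp37, 512 kb apart, fell from 1.18, 1.40 and 1.298 to 0.575.

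Of the 5 largest rises, ranked by distance above the untreated range, 4 joined blocks on either side of Stk36, 3 of them between blocks that each hold at least 2 gene starts. The block of Pnkd, Slc11a1 and Ctdsp1 with that of Dnajb2, a co-chaperone gene, Ptprn and Resp18, 832 kb apart, rose from 0.697, 0.733 and 0.708 to 1.77, or from 2.04, 2.01 and 2.18 to 4.47 as scaled contact. Pnkd, Slc11a1 and Ctdsp1 with Speg, Gmppa and Chpf, 1024 kb apart, rose from 0.642, 0.675 and 0.643 to 1.52. Arpc2, which encodes a subunit of an actin-nucleating complex, with Dnajb2, Ptprn and Resp18 rose from 0.673, 0.706 and 0.662 to 1.55. The 3 pairs were depleted for their separation in all untreated maps and enriched in the treated one. The block of Gpbar1, Aamp, Pnkd and Tmbim1 with that of Speg, 1088 kb apart, rose in the same way from 0.608, 0.686 and 0.598 to 1.48.

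The largest rise of all, Mreg with Igfbp5 at 768 kb, went from 0.475, 0.464 and 0.526 to 1.28. It lies in the second block from the upstream end of the captured stretch, and in the first 2 blocks 20 of 27 and 9 of 17 tested blocks were called higher and 0 lower, with no gene start in either. Without the first of them 20.5% of blocks were called higher and 17.9% lower. The part of the edge of the captured stretch in these values was not tested.

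The falls and rises occupied different parts of the map. The stretch was divided at 4 boundaries, at Igfbp5, beside Tns1, at Vil1 and at Stk36, a division chosen after the block map had been seen, so its counts are a description. Between the part from Tns1 to Vil1 (0.544 Mb, 13 gene starts) and the part from Stk36 to the downstream end (1.01 Mb, 36 gene starts), 103 of 119 blocks were called higher and 0 lower. The mean observed/expected there was 0.718, 0.705 and 0.757 against 1.23, a log2 change of 0.76 ± 0.01, and the scaled contact 2.15, 2.00 and 2.41 against 3.14, a log2 change of 0.52. Between the part upstream of Igfbp5 and the gene-poor part from Igfbp5 to Tns1 (1.01 Mb, 2 gene starts), 81 of 189 blocks were called lower and 25 higher, and observed/expected was 1.23, 1.27 and 1.24 against 1.04. The gene-rich pair thus moved from below to above the mean for its separation, and the pair with the most gene-poor part moved towards that mean.

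The short part from Vil1 to Stk36 (0.173 Mb, 5 gene starts), which holds Usp37, differed in its contacts with the other parts. Its largest change was with the part from Igfbp5 to Tns1, where observed/expected was 0.384, 0.371 and 0.385 against 0.251, a log2 change of -0.60, and 4 of 7 blocks were called lower and 0 higher. The scaled contact there, 0.768, 0.687 and 0.837 against 0.506, was lower by the same amount. Its contacts with the part from Tns1 to Vil1 measured 0.828, 0.876 and 0.870 against 0.697, with 10 of 24 blocks called lower and 1 higher. Its observed/expected with the part upstream of Igfbp5 was 1.32, 1.27 and 1.25 against 0.920, with 10 of 20 blocks called lower, while the scaled contact of 0.987 lay within the untreated range of 0.878 to 1.11. Contacts within it measured 1.42, 1.35 and 1.41 against 1.66. With the part downstream of Stk36 the observed/expected was 0.659, 0.641 and 0.689 against 0.780, with 12 of 45 blocks called higher and 0 lower, but the scaled contact was 5.04, 5.16 and 5.39 against 4.79, so that the direction there depended on the division by the mean at each separation.

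Over 500 kb apart, most pairs of gene-dense blocks were called higher, but most called rises lay outside such pairs. The 18 blocks of 64 kb with at least 2 gene starts were called dense and the 37 with at most 1 poor, and pairs beyond that distance were compared. Dense blocks contacted each other at 1.04, 1.01 and 1.06 in the untreated maps and at 1.33 in the treated map, a log2 change of 0.36 ± 0.01 that was 0.21 for pairs over 1 Mb apart. Poor blocks contacted each other at 1.15, 1.17 and 1.15 against 1.07, a change of -0.11 that was -0.051 over 1 Mb and -0.18 without the 2 blocks nearest the upstream end. Dense and poor blocks contacted each other at 0.864, 0.854 and 0.871 against 0.865, within the untreated range. Of the dense pairs 41 of 70 blocks were called higher and 1 lower, of the poor pairs 41 higher and 85 lower of 297, and of the mixed pairs 58 higher and 36 lower of 239. Of the gene starts, 13, 5 and 36 lie in the 3 parts downstream of the boundary beside Tns1 and 9 and 2 in the others, so density and position along the stretch cannot be told apart here.

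**Figure D5:**
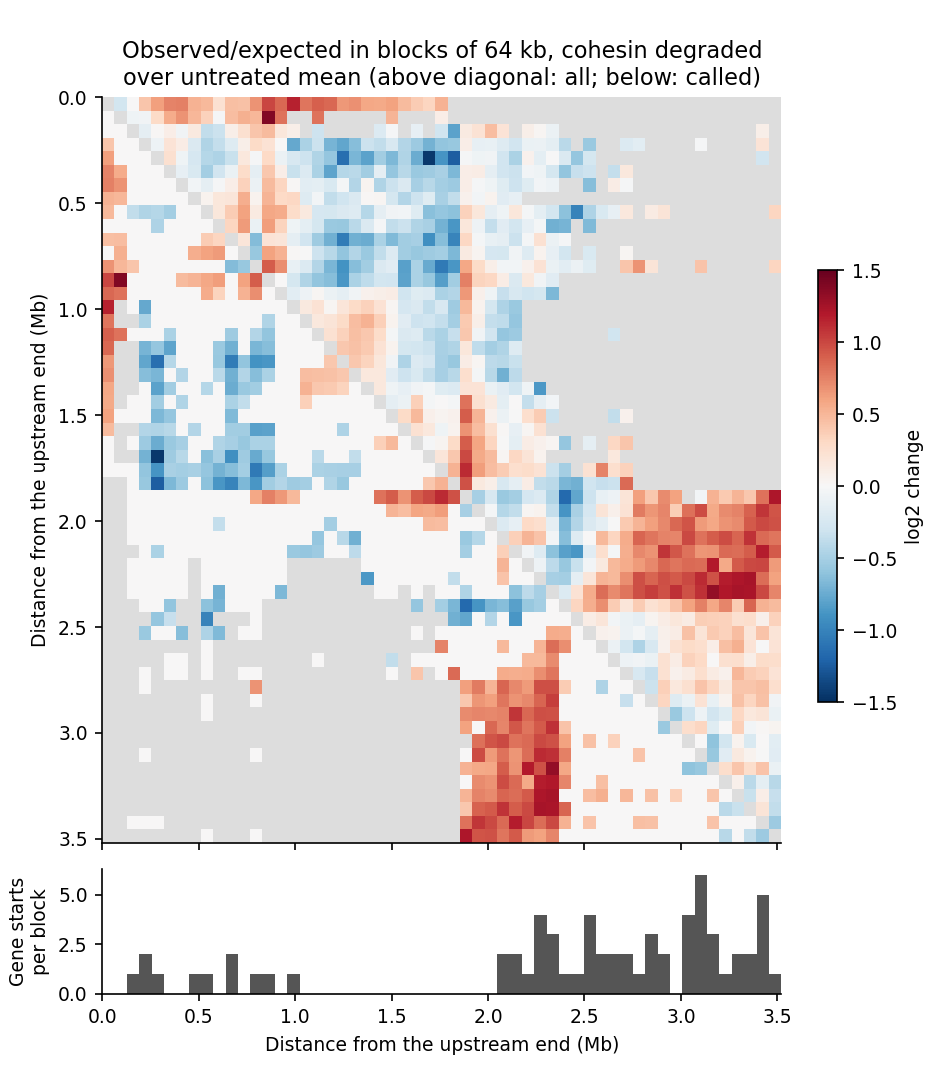
Log2 change of observed/expected between the treated map and the untreated mean in blocks of 64 kb, with axes in Mb from the upstream end, all tested blocks above the diagonal, called blocks below it, untested blocks in grey, and gene starts per block in the bar panel. The 103 called rises between the gene-rich parts on either side of Stk36 form one red rectangle, and 81 called falls lie between the gene-poor part and its upstream neighbour.

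Contacts inside most domains were also lower in the treated map. The 11 intervals between neighbouring boundaries had a median observed/expected, for pairs at least 25 kb apart, of 1.43, 1.37 and 1.42 against 1.09, and 8 lay below the untreated range, 1 within and 2 above, with a median log2 change of -0.32. Among the 159 blocks of 64 kb under 250 kb apart, 41.5% lay below the untreated range and 48.4% above it, and no background over other intervals was computed. The intervals were set by minima of the untreated maps and were not read in an untreated map left out. The interval of Igfbp2 and Igfbp5 fell from 1.54, 1.62 and 1.48 to 1.09 (-0.50). That of Wnt6, Wnt10a, Cdk5r2 and Fev, which holds a pair of genes of Wnt ligands, fell from 1.56, 1.61 and 1.53 to 1.11 (-0.50). That of Ihh, the gene of the Hedgehog ligand of growing cartilage, with Nhej1 fell from 1.58, 1.59 and 1.53 to 1.205 (-0.38). All 3 treated values remained above 1, the mean at the same separation, and that of Ihh and Nhej1 was the highest of them. The interval from Usp37 to Rnf25 went the other way, from 1.43, 1.37 and 1.42 to 1.66 (0.23), as did the gene-free interval chr1:73644801-73926400, from 0.894, 0.898 and 0.865 to 0.971 (0.13).

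Contacts between neighbouring intervals changed less, with a median of -0.08 over 10 pairs, 6 below the range, 1 within and 3 above. The largest change was a rise across the boundary beside Tns1, from 0.501, 0.440 and 0.482 to 0.619 (0.38). Strips of contacts running from a boundary, 60 to 500 kb long and compared with the strips beside them, lay below the range on 14 of 24 sides, within on 2 and above on 8, with a median change of -0.07. The same strips drawn from every bin lay below the range on 34.6% of 1057 sides and above it on 44.9%, with a median change of 0.02. The strips at boundaries were not read in an untreated map left out either. The strongest strip, downstream of Igfbp5, fell from 1.54, 1.65 and 1.44 to 1.04 (-0.57), and the one on the upstream side of the same boundary went from 1.08, 1.09 and 1.10 to 1.23. At Vil1 the downstream strip went from 1.295, 1.288 and 1.289 to 1.37.

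Window by window, the untreated maps resembled each other more than the treated map resembled any of them. Over 69309 windows between 60 kb and 1 Mb, which overlap and are not independent, the correlation of log2 observed/expected was 0.694 to 0.732 among the untreated maps and 0.386 to 0.410 between these and the treated map. At 60 to 300 kb, where reads per window are highest, it was 0.934 to 0.941 and 0.750 to 0.769. Of the untreated maps, 1B1, the line the treated cells came from, was nearest to the treated map from 60 kb to 1 Mb (0.410 against 0.395 for 1A2 and 0.386 for 1F4) and farthest from it at 60 to 300 kb (0.750 against 0.769 and 0.755).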

How the data were processed

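Per the labels and the study's methods, the authors crosslinked mESCs, digested chromatin with MboI, enriched ligation products with a tiled capture, and mapped reads to mm9 with HiC-Pro 2.11.4. The deposited values are an ICE-balanced contact signal per pair of 6.4-kb bins, with 1 map per library and no pooling. The methods describe capture probes for chromosome 15 only, while the maps also cover chromosome 1. Balancing equalises the sums of bins, so it removes coverage differences between bins and the sums carry no depth.

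Reads were recovered from the signal as whole multiples of 1 factor per bin (100% of values within 0.05 of a whole read). Reads carry no molecular identifiers, so ± and all counting errors cover counting error only. Only chromosome 1 pairs were used, and 6 bins that were not balanced in every map were left out. Observed/expected is the balanced value over the mean at its separation. Focal windows needed 100 reads on average and separations of 60 kb to 2 Mb. Gene starts were taken from the NCBIM37 annotation. Computation used Python 3.11.15, NumPy 2.4.6, SciPy 1.17.1 and Matplotlib 3.10.9, and was tested on simulated maps. Groups came from the sample labels. Named sites were every boundary, the 10 strongest focal contacts, the contacts with facing degenerate sites, and the 5 contacts and 5 blocks with the largest rise and the 5 with the largest fall. Contacts were ranked by their log2 change and blocks by their distance beyond the untreated range. The unshared treated calls, runs of bins, parts, domains and strips named beside them were chosen after their values were seen. The members and lists were chosen with earlier results of these data known. Alternatives covered scaling, fit range, square, window and block size, thresholds, balancing, and each reference line left out.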

Additional observations from a re-analysis of the deposited data

How the results depend on the processing

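No paired analysis was possible because each group holds 1 library. Over 26 values, 210 alternatives were run (28 chosen after seeing the data), of which 118 moved the value by less than the spread of the untreated maps or a factor of 1.5, 87 moved it further and 5 reversed it. The cause of these differences was not tested. Reversed were the slope change of -0.08, to 0.13 when fitted from 100 to 2000 kb, 0.18 from 300 to 1000 kb and 0.63 from 1000 to 3000 kb, and the 25 to 100 kb band, to -0.033 when scaled to all separations and -0.054 when also set against 1B1 alone. The slope change was -0.18 from 50 to 500 kb, -0.24 from 50 to 300 kb and -0.12 against 1B1 alone. Scaled to all separations, the other bands changed by -0.48, -0.60, -0.45, -0.039 and 0.50, and against 1B1 alone the first 4 bands by 0.19, -0.30, -0.46 and -0.35. With both together, the last 5 bands changed by -0.54, -0.70, -0.60, -0.24 and 0.27. Boundaries rose by 0.21 with squares of 10 bins, 0.24 with 40 bins (6 above the range), 0.35 on observed/expected, and 0.35 and 0.26 over 1F4 and 1B1 left out. With margins of 0.15 and 0.6, insulation bins called were 149 and 11 higher and 134 and 0 lower, and squares of 10 bins gave 58 lower. The focal change was -0.049 on unbalanced reads, -0.33 with windows of 5 by 5 bins, -0.39 without the ring, -0.16 and -0.70 at call ratios of 1.3 and 2, -0.39 at 200 reads and -0.14 over 1B1 left out. Contacts below the range were 81 of 202 on unbalanced reads, 51 of 88 at 1.3, 7 of 7 at 2 and 15 of 20 at 200 reads, and the treated map held 12 at 2, 170 at 50 reads and 16 at 200. Blocks of 5 bins gave 13.9% higher, a margin of 0.6 gave 9.66% higher and 3.32% lower, and a margin of 0.15 gave 28.9% lower. Within domains the change was -0.28 unbalanced, -0.22 at a depth of 0.15, -0.37 with a median expected value and -0.27 against 1B1 alone, and between neighbours -0.023 unbalanced, -0.12 with a median expected value and -0.090 against 1B1 alone. Strips changed by -0.11 unbalanced and -0.047 at 60 to 300 kb. Dense pairs changed by 0.42 unbalanced and 0.21 over 1 Mb, mixed pairs by 0.025, -0.035 and, with only the most and least dense blocks, -0.051, and poor pairs by -0.13, -0.051 and, without the 2 upstream blocks, -0.18. The similarity difference of -0.315 became -0.226 unbalanced, -0.180 at 60 to 300 kb and -0.183 as Spearman's rho. Leaving out each untreated map in turn gave -0.10 to -0.06 for the slope, 0.11 to 0.16, -0.31 to -0.31, -0.44 to -0.40, -0.31 to -0.23, 0.07 to 0.21 and 0.59 to 0.77 for the bands, 0.27 to 0.31 for boundaries (9 to 11 above the range), 71 to 77 and 33 to 38 insulation bins, -0.30 to -0.21 for focal contacts, 23.5% to 24.6% and 18.9% to 20.0% of blocks, -0.35 to -0.24 within domains, -0.092 to -0.058 between neighbours, -0.089 to -0.075 for strips, and 0.34 to 0.38, -0.00 to 0.01 and -0.12 to -0.10 for dense, mixed and poor pairs. Contacts below the range numbered 32 to 41, with 41 of 56 without 1B1.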
